A study of Mus musculus with 9 samples.

Results

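The 10 transcripts described here are encoded by the mitochondrial genome: the ribosomal RNAs mt-Rnr1 and mt-Rnr2, and the messenger RNAs mt-Nd1, mt-Nd2, mt-Nd4, mt-Co1, mt-Co2, mt-Co3, mt-Atp6 and mt-Cytb. They are the rows of the deposited table whose Ensembl identifiers carry these symbols in the GENCODE annotation of GRCm38. The symbols were chosen with earlier results of these data known. All 10 had a row, out of 13588 rows in the table. The annotation lists 37 genes on the mitochondrial chromosome (M), and 34 of them had a row, so that 24 further rows (20 transfer RNAs and the messenger RNAs mt-Nd3, mt-Nd5, mt-Nd6 and mt-Atp8) stand beside the members. The genes mt-Nd4l, mt-Tf and mt-Tl2 had no row.

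RNA came from the mediobasal hypothalamus of 9 male mice of a C57BL/6J background, all homozygous for a floxed Snord116 allele (Snord116tm1Uta), so that the control mice carried the floxed allele as well. At 10 to 12 weeks of age they received AAV7 vectors on both sides, either expressing Cre recombinase from the CAG promoter (AAV-Cre, 6 mice) or GFP from the CMV promoter (AAV-GFP, 3 mice), and brains were frozen 10 weeks after the injection. The Cre vector was given at a higher titre than the GFP vector. Both promoters are active in many cell types, and the regions were cut from single brain slices by laser, guided by Cre staining of neighbouring sections and matched by position in the AAV-GFP mice, with a library per mouse. The AAV-Cre mice carry a weight label, obese for 3 and nonobese for 3, but their titles name the subsets the other way round, so each subset is called here by its weight label. In such bulk samples fewer cells of a type and less RNA per cell cannot be told apart.

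Mitochondrial DNA is a small circle that is transcribed from both strands into long precursors, from which transfer RNAs are cut out to release the ribosomal and messenger RNAs between them. Its messenger RNAs encode core subunits of the respiratory chain and of ATP synthase, and its ribosomal RNAs form the mitochondrial ribosome that translates them. The nucleus encodes everything else this system needs, from the polymerase Polrmt and the packaging factor Tfam to the ribosomal proteins, and neurons depend strongly on its product for their ATP.

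All 10 members lie on the plus strand of chromosome M, each as a single exon without introns. In GRCm38 mt-Rnr1, the RNA of the small ribosomal subunit, spans 70 to 1024, and mt-Rnr2, the RNA of the large subunit, spans 1094 to 2675, with the transfer RNA mt-Tv between them at 1025 to 1093. The complex I genes mt-Nd1, mt-Nd2 and mt-Nd4 follow at 2751 to 3707, 3914 to 4951 and 10167 to 11544. The cytochrome c oxidase (complex IV) genes mt-Co1, mt-Co2 and mt-Co3 lie at 5328 to 6872, 7013 to 7696 and 8607 to 9390. The ATP synthase gene mt-Atp6 lies at 7927 to 8607, and mt-Cytb, which encodes cytochrome b of complex III, lies at 14145 to 15288.

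The 3′ ends of the messenger RNA members show how tightly this genome is packed, and they are given here because a gene that ends inside its stop codon has no untranslated tail of its own in the annotation. Below are the last 18 bases of each, from GENCODE transcripts of GRCm38, 5′ to 3′ on the plus strand, with the stop codon, or as much of it as the gene holds, in capitals.
mt-Nd1: gtaccaccatacataTAG
mt-Nd2: ccccaactaattaccTAG
mt-Co1: tatgtaaaagtaaaaTAA
mt-Co2: tctgcttcaataattTAA
mt-Atp6: ctacatgataatacaTAA
mt-Co3: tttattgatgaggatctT
mt-Nd4: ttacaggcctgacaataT
mt-Cytb: tactaaaattatatccaT

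In mt-Co3, mt-Nd4 and mt-Cytb the annotated gene ends 1 base into the stop codon, which is known to be completed by the addition of a poly(A) tail, whereas the other 5 hold a whole stop codon. The gene mt-Atp6 also shares 43 bases with mt-Atp8, the other mitochondrial ATP synthase gene, which bears on its count because a read inside the overlap can belong to either. The shared bases are in capitals below, with 12 bases on each side (chrM:7915-7981).
mt-Atp8/mt-Atp6: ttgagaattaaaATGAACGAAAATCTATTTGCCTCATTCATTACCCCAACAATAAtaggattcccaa

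The start codon of mt-Atp6 opens the capitals and the stop codon of mt-Atp8 closes them.

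Pieces of mitochondrial DNA also sit in the nuclear genome, and a short read from them cannot be told from a mitochondrial read. Of all 50-base windows of mt-Co2, 100% occurred without a mismatch in another annotated transcript of GRCm38, and the share was 99.5% for mt-Atp6, 99.9% for mt-Co3, 62.2% for mt-Nd4, 51.1% for mt-Co1 and 8.19% for mt-Nd2. For mt-Rnr2 it was 1.04%, and no window of mt-Rnr1, mt-Nd1 or mt-Cytb was shared. Of the 11 copies found for the members, 5 were pseudogenes lying in a row on chromosome 1, among them Gm28661 (24614885 to 24615565) for mt-Co2, Gm10925 (24613974 to 24614651) for mt-Atp6, Gm28437 (24613189 to 24613971) for mt-Co3 and Gm28439 (24611535 to 24612410) for mt-Nd4. None of the 11 copies had a row in the table. How the counting treated reads that match more than a single place is not given in the sources used here, so the levels of mt-Co2, mt-Atp6, mt-Co3, mt-Nd4 and mt-Co1 are uncertain by the reads such copies took or gave.

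Depth was similar across the series, with 3929672 to 5766994 reads on table rows per library and a median of 4611358, and counting error is small for abundant rows (the 95% Wilson interval of the members' share was 24.5% to 24.6% in AAV-GFP mouse 1). Such intervals cover counting error only. Cre had 5912, 37704 and 1011 reads in the AAV-Cre mice labelled obese, 26539, 19611 and 33105 in those labelled nonobese and at most 5 in the AAV-GFP mice. Gfp had 317 to 350.0 reads in the AAV-GFP mice and 0 in the others, and Snord116 had no row. Neuronal markers summed to 2130.2 to 2800.1 of signal, the deposited reads scaled to library size by TMM. Of the hypothalamic neuron markers 9 of 10 had a row (Kiss1 did not), and they summed to 199 to 643, both ends in AAV-GFP mice. The libraries of AAV-Cre mice 1 and 3 labelled obese stood apart, with plasma and B cell markers (5 of 7 with a row) at 2769 and 4895 against 1.75 to 70.1 in the other 7 mice, and microglial markers (7 of 7) at 723 and 687 against 103 to 148. All 3 mice labelled obese, mouse 2 among them, lay outside the other 6 mice in some marker sums. They were lower in oligodendrocyte markers (7 of 7; 1105.0, 871 and 1063 against 1168 to 2606). They were higher in endothelial markers (6 of 6; 134, 148 and 196 against 85.9 to 125), T cell markers (5 of 7; 91.8, 12.7 and 63.9 against 2.35 to 6.65) and MHC class I genes (4 of 4; 2708, 202 and 2816 against 97.4 to 178). Tanycyte and ependymal markers (2 of 6) were higher as well, at 151, 53.1 and 112 against 22.6 to 51.1. In plasma and B cell markers mouse 2 had 70.1, against 1.75 to 44.2 in those 6 mice. For the main comparisons values are also given without mice 1 and 3 labelled obese. Mouse 2 is then the only mouse of its subset, and those fits assume that it varies as the mice of the other groups do.

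The mitochondrial transcripts took a large and steady share of every library. As a percentage of reads on table rows, the 10 members made up 24.5, 21.7 and 21.9 in the AAV-GFP mice, 20.8, 25.2 and 19.7 in the AAV-Cre mice labelled obese and 24.8, 24.3 and 24.4 in those labelled nonobese. The mice labelled nonobese lay close together, while those labelled obese held both the lowest and the highest share of the series, and all groups overlapped. The means were 22.7% ± 1.57 (SD, n = 3), 21.9% ± 2.88 (SD, n = 3) and 24.5% ± 0.263 (SD, n = 3). No test was run on these sums, because the members were chosen with earlier results known.

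The ribosomal RNAs carried most of that share. Together mt-Rnr1 and mt-Rnr2 took 21.9, 18.6 and 19.1% of reads in the AAV-GFP mice, 18.2, 21.9 and 17.5% in the mice labelled obese and 21.6, 20.3 and 21.8% in the mice labelled nonobese. The 8 messenger RNA members took 2.66, 3.06 and 2.82%, 2.58, 3.27 and 2.26% and 3.21, 3.99 and 2.62% in the same order. The messenger RNA share therefore differed more between mice, by 1.77-fold from lowest to highest against 1.25-fold for the ribosomal RNAs. Its lowest value was in mouse 3 labelled obese and its highest in mouse 2 labelled nonobese, and both AAV-Cre subsets reached beyond the AAV-GFP mice on both sides. The further 24 mitochondrial rows added 0.706% to 1.39%.

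Set against each other, the members gave 8.21, 6.09 and 6.77 ribosomal reads per messenger read in the AAV-GFP mice. The ratio was 7.07, 6.70 and 7.74 in the mice labelled obese and 6.71, 5.09 and 8.32 in those labelled nonobese. The mice labelled nonobese spanned the whole range of the series, from 5.09 in mouse 2 to 8.32 in mouse 3, and the groups overlapped. On the log2 scale the mean ratio was 2.80 ± 0.22 (SD, n = 3), 2.84 ± 0.11 and 2.72 ± 0.36. The group means differed by less than the SD of the AAV-GFP mice and that of the mice labelled nonobese. The difference between the AAV-Cre subsets was slightly larger than the SD of the mice labelled obese. Without mice 1 and 3 labelled obese, the remaining mouse of that subset had 6.70 ribosomal reads per messenger read, inside the range of the AAV-GFP mice. The library kit has a step that removes ribosomal fragments, and how far it acts on mitochondrial ribosomal RNA is not given in the sources used here, so these ratios describe the libraries after that step.

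**Figure D1:**
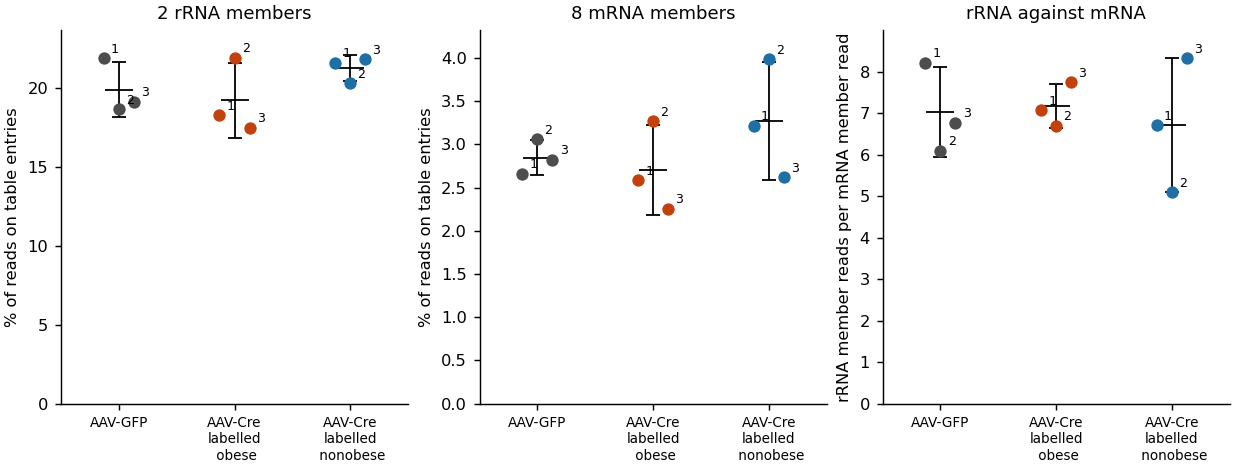
Share of the reads of each library taken by the 2 ribosomal RNA members (left) and the 8 messenger RNA members (middle), in percent, and ribosomal reads per messenger read (right). Points are single mice with their replicate number, and bars are the group mean with SD (n = 3); the 3 groups overlap in each panel, and the messenger share runs from 2.26% in mouse 3 labelled obese to 3.99% in mouse 2 labelled nonobese.

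The ribosomal RNAs were the most abundant rows of the table, mt-Rnr2 ranking 1 and mt-Rnr1 ranking 2 in each of the 9 libraries. The signal of mt-Rnr1 was 77703, 65748 and 69082 in the AAV-GFP mice, 69719.8, 91915 and 67562 in the AAV-Cre mice labelled obese and 90712, 82931 and 80643 in those labelled nonobese. All 3 mice labelled nonobese lay above all AAV-GFP mice, while 2 of the mice labelled obese lay inside the AAV-GFP range and mouse 2 above it. The signal of mt-Rnr2 was 141055, 112027 and 114908 in the AAV-GFP mice, 108719, 137340.0 and 100380.0 in the AAV-Cre mice labelled obese and 127039, 125937 and 138529 in those labelled nonobese, with all groups overlapping. Per kb of gene, mt-Rnr2 stood to mt-Rnr1 as 1.10, 1.03 and 1.004 in the AAV-GFP mice, 0.941, 0.902 and 0.897 in the mice labelled obese and 0.845, 0.917 and 1.04 in the mice labelled nonobese. This ratio was below every AAV-GFP value in the 3 mice labelled obese, and in 2 of the 3 labelled nonobese, mouse 3 of which lay inside the AAV-GFP range. The ratio was chosen after its values were seen, and no test was run on it.

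Among the messenger RNAs, compared per kb of gene, mt-Atp6 stood highest and apart. Its signal per kb ranged from 7667 to 13515 over the 9 mice, against 3196 to 5023 for mt-Co1, the next in order. The order by mean signal per kb was mt-Rnr1 (80979 ± 10404, SD over 9 mice), mt-Rnr2 (77675 ± 9212), mt-Atp6 (10224 ± 2124), mt-Co1 (3819 ± 601), mt-Cytb (3816 ± 785), mt-Nd1 (2854 ± 543), mt-Co3 (2706 ± 672), mt-Nd4 (2573 ± 603), mt-Nd2 (2199 ± 506) and mt-Co2 (2083 ± 539). Between neighbours in this order, ranges were separate only from mt-Rnr2 to mt-Atp6 and from mt-Atp6 to mt-Co1. The other neighbours overlapped, although mt-Cytb was above mt-Nd1, and mt-Nd4 above mt-Nd2, in each of the 9 mice. Nearly every window of mt-Atp6, and every window of mt-Co2, also occurs in a nuclear pseudogene. The part of such copies in either level was not tested.

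**Figure D2:**
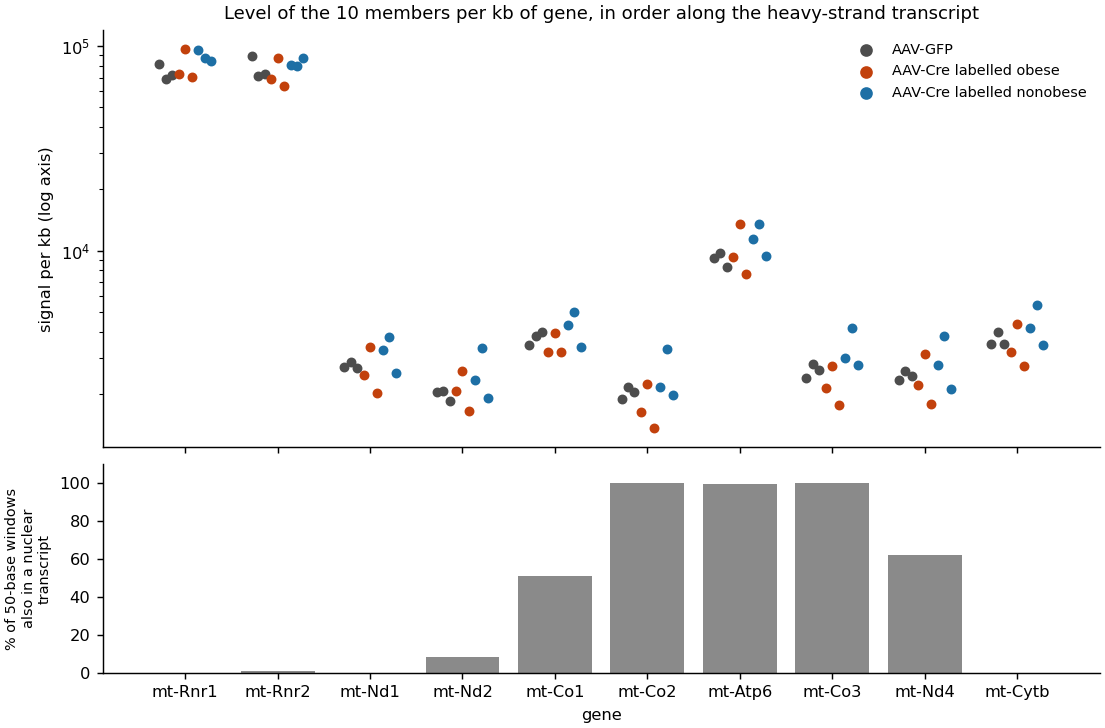
Upper panel: signal per kb of gene (log axis) of the 10 members in their order along the mitochondrial genome, with a point per mouse coloured by group. Lower panel: percentage of the 50-base windows of each gene that occur in another annotated transcript; mt-Rnr1 and mt-Rnr2 stand above all messenger RNAs, mt-Atp6 stands above the other messenger RNAs, and window sharing is 51.1% or more for mt-Co1, mt-Co2, mt-Atp6, mt-Co3 and mt-Nd4.

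The 8 messenger RNAs varied together from mouse to mouse. All 8 had their lowest signal in mouse 3 labelled obese and their highest in mouse 2 labelled nonobese. Over the 9 libraries the Pearson correlation of log2 signal between pairs of them (28 pairs) ran from 0.741 to 0.983, with a median of 0.911, as a description of rows that share library, depth and transcript. The summed ribosomal members followed the summed messenger members less closely (r = 0.58, Spearman's rho = 0.417, n = 9, and r = 0.422 without the 2 mice farthest from the median ribosomal level). Within the messenger reads the makeup changed little, mt-Atp6 taking 20.9% to 26.9%, mt-Co1 17.8% to 22.8%, mt-Cytb 14.3% to 15.6%, mt-Nd4 11.1% to 12.8%, mt-Nd1 8.83% to 9.68%, mt-Nd2 7.04% to 8.44%, mt-Co3 6.26% to 8.26% and mt-Co2 4.28% to 5.52%.

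The comparison of AAV-Cre with AAV-GFP mice sets the Cre vector against the GFP vector in a floxed Snord116 hypothalamus. Cre, promoter and vector titre differ together in it and cannot be told apart. Each member was read from a limma fit on log2(signal + 1) over all 13506 rows whose signal reached 1 in 3 or more libraries, and called at a Benjamini-Hochberg FDR under 0.1. With 3 mice against 3 an exact permutation test of a single gene cannot go below 0.1. No member was called in any of the 4 comparisons. Of all rows, 0.555% were called between the mice labelled obese and AAV-GFP, 0.0148% between the mice labelled nonobese and AAV-GFP, 0.0444% between all AAV-Cre mice and AAV-GFP, and 0.948% between the subsets. Members at an unadjusted p under 0.05 in the limma fit numbered 0, 1, 0 and 3 in the same order, beside 9.88%, 2.27%, 4.31% and 11.4% of all rows.

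Between the mice labelled obese and the AAV-GFP mice, 3 members had a fold change above 0 and 7 below (47.0% of all rows were above), with a median log2 fold change of -0.09 beside -0.04 over all rows. The signal of mt-Atp6, the membrane channel subunit of ATP synthase, was 6252, 6604 and 5689 in the AAV-GFP mice, 6322, 9195 and 5221 in the AAV-Cre mice labelled obese and 7793, 9204 and 6382 in those labelled nonobese. Its fold change, the highest of the members here, was 0.12 ± 0.17 (SE, FDR = 0.859), and mouse 2 labelled obese lay above all AAV-GFP mice while mouse 3 lay below them. The lowest fold change was that of mt-Co2, at -0.25 ± 0.18 (SE, FDR = 0.676). The lowest FDR of any member was 0.642. No member separated these groups, whereas 14.5% of all rows did.

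Direction here rested on single mice. Without mice 1 and 3 labelled obese, all 10 members had a fold change above 0 against AAV-GFP, and without mouse 2 none had. When the values were centred on library medians 2 members were above 0, and quantile normalisation left 1 above 0 and set both ribosomal RNAs to 0 by construction.

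Between the mice labelled nonobese and the AAV-GFP mice, all 10 members had a fold change above 0 (48.1% of all rows did), from 0.10 for mt-Rnr2 to 0.33 for mt-Co3, with a median of 0.24 beside -0.02 over all rows. Under quantile normalisation 6 were above 0, 2 below and the ribosomal RNAs at 0, and without mouse 2 labelled nonobese 9 were above 0. The change of mt-Rnr1 was 0.26 ± 0.16 (SE, FDR = 0.999). It was the only member whose groups did not overlap, beside 9.72% of all rows in either direction and 4.57% higher (exact permutation test, p = 0.1, the smallest possible). For mt-Nd1, a core subunit of complex I, the signal was 2574, 2744 and 2555 in the AAV-GFP mice, 2351, 3241 and 1936 in the AAV-Cre mice labelled obese and 3142, 3624 and 2409 in those labelled nonobese. Its change was 0.20 ± 0.16 (SE, FDR = 0.999), with 2 of the 3 mice labelled nonobese above all AAV-GFP mice. With the AAV-Cre subsets pooled against AAV-GFP, 9 members were above 0 (46.6% of all rows were), but 3 were without mouse 2 labelled obese, 4 without mouse 2 labelled nonobese and 2 under quantile normalisation. In this comparison no member separated the groups (2.01% of all rows did), the members' median was 0.05, and the highest value was that of mt-Atp6 (0.22 ± 0.14 (SE, FDR = 0.991)).

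The highest fold changes of the members, mt-Co3 and mt-Co2, were found between the AAV-Cre subsets. All 10 had a fold change above 0 in the mice labelled nonobese against those labelled obese (51.3% of all rows did), with a median of 0.28 beside 0.02 over all rows; quantile normalisation left 8 above 0 and both ribosomal RNAs at 0. The oxidase subunit mt-Co3 had a signal of 1865, 2180.3 and 2055 in the AAV-GFP mice, 1674, 2142 and 1386 in the AAV-Cre mice labelled obese and 2331, 3286 and 2176 in those labelled nonobese. The 3 mice labelled nonobese lay above the 3 labelled obese, mouse 3 of the former (2176) only just above mouse 2 of the latter (2142), and mt-Co3 was the only member to separate these groups, beside 13.3% of all rows in either direction and 6.61% higher. Its change was 0.58 ± 0.16 (SE, FDR = 0.111), with an unadjusted p of 0.00132 in the limma fit, which did not pass the threshold.

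The other catalytic oxidase subunits followed in different measure. The signal of mt-Co2, which binds cytochrome c, was 1295, 1480.0 and 1393 in the AAV-GFP mice, 1116, 1528 and 928 in the AAV-Cre mice labelled obese and 1475, 2264 and 1341 in those labelled nonobese, and its change was 0.50 ± 0.18 (SE, FDR = 0.25). Mouse 2 labelled obese lay among the mice labelled nonobese. The largest oxidase subunit, mt-Co1, had 5322, 5908 and 6192 in the AAV-GFP mice, 4952, 6106 and 4937 in the AAV-Cre mice labelled obese and 6717, 7761 and 5208 in those labelled nonobese, and its change was 0.29 ± 0.14 (SE, FDR = 0.457).

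Cytochrome b and the complex I subunits differed by less than mt-Co3 and mt-Co2. The signal of mt-Cytb was 3993, 4554 and 4021 in the AAV-GFP mice, 3672, 5034 and 3113 in the AAV-Cre mice labelled obese and 4783, 6182 and 3936 in those labelled nonobese, with a change of 0.34 ± 0.16 (SE, FDR = 0.437). For mt-Nd4 the signal was 3221, 3573 and 3356 in the AAV-GFP mice, 3030.0, 4314 and 2468 in the AAV-Cre mice labelled obese and 3788, 5251 and 2912 in those labelled nonobese. For mt-Nd2 it was 2114, 2144 and 1912 in the AAV-GFP mice, 2131, 2681 and 1709.7 in the AAV-Cre mice labelled obese and 2417, 3465 and 1969 in those labelled nonobese. In mt-Cytb, mt-Nd4 and mt-Nd2 alike mouse 2 labelled obese was above mouse 3 labelled nonobese, so the subsets overlapped. The changes of mt-Nd1, mt-Nd2 and mt-Nd4 lay between 0.25 and 0.30, that of mt-Atp6 was 0.20 ± 0.17 (SE, FDR = 0.694), and those of mt-Rnr1 and mt-Rnr2 were 0.16 and 0.19.

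These differences moved with the mice that stood apart. Mice 3 and 1 labelled obese had the lowest messenger RNA shares of the series (2.26% and 2.58%). They also had the lowest neuronal marker sums (2130.2 and 2244.8 of signal against 2431 to 2800.1 in the other mice) and the high immune marker sums given above. Mouse 3 labelled nonobese (2.62%) and AAV-GFP mouse 1 (2.66%) had nearly the same messenger RNA share as mouse 1 labelled obese. Their neuronal sums were 2776 and 2549, and their immune marker sums were not high. The neuronal, oligodendrocyte and endothelial sums were among those that set all 3 mice labelled obese apart from those labelled nonobese. The neuronal sum was 2562 in mouse 2 labelled obese, against 2664 to 2800.1 in the mice labelled nonobese. Among the AAV-Cre mice, Cre signal was also lowest in mice 3 and 1 labelled obese (235 and 1330 against 4644 to 8557). In mouse 3 labelled nonobese it was 7064. The parts of cell makeup and of Cre level in the members' values were not tested. Against mouse 2 labelled obese alone, 3 of the 10 members had a fold change above 0 in the mice labelled nonobese (mt-Co1, mt-Co2 and mt-Co3) and the fold change of mt-Co3 was 0.25, that of mt-Co2 0.11 and the members' median -0.0750, with no spread among mice of that subset to set them against. Without mouse 2 labelled obese, 6 members (mt-Nd1, mt-Nd4, mt-Co2, mt-Co3, mt-Atp6 and mt-Cytb) were called higher in the mice labelled nonobese, while 908 rows in all were called against 128 with all mice.

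**Figure D3:**
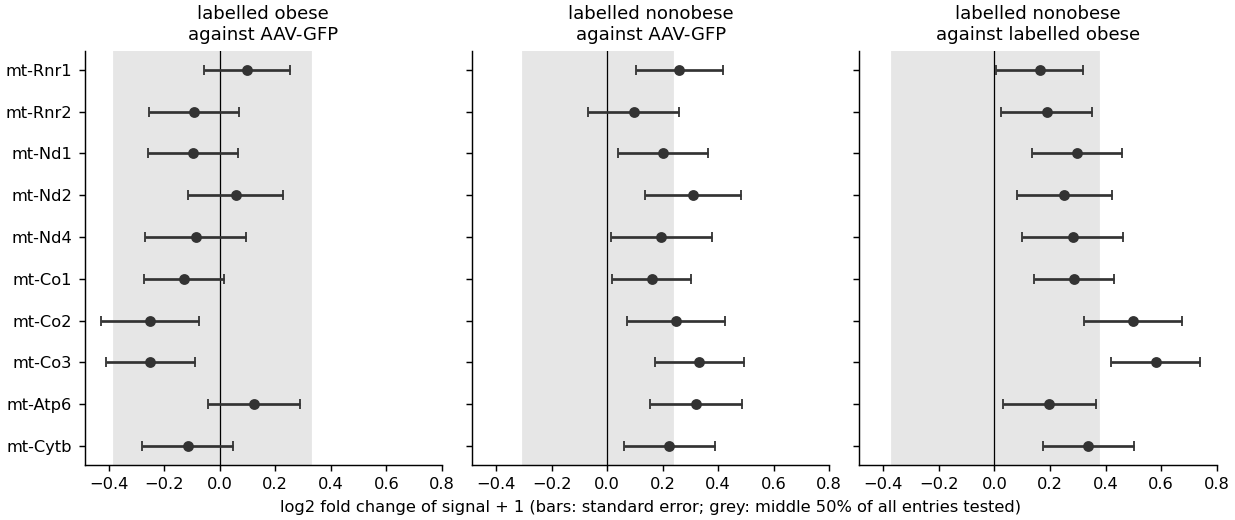
Log2 fold change of signal + 1 of each member with its standard error (limma) for the mice labelled obese against AAV-GFP, the mice labelled nonobese against AAV-GFP, and the mice labelled nonobese against those labelled obese. The grey band holds the middle 50% of all 13506 rows; in the right panel mt-Co3 (0.58) and mt-Co2 (0.50) lie outside it, and no member passed an FDR of 0.1 in any panel.

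None of the 4 further mitochondrial messenger RNAs was called with all mice. The complex I subunit mt-Nd3 had a signal of 293, 356 and 263 in the AAV-GFP mice, 240.1, 359 and 165 in the AAV-Cre mice labelled obese and 382, 567 and 335 in those labelled nonobese, and its change between the subsets was 0.78 ± 0.22 (SE, FDR = 0.13), the largest among the mitochondrial messenger RNAs. It rested on single mice, being 0.50 without mouse 3 labelled obese, 0.56 without mouse 2 labelled nonobese, 0.21 without mice 1 and 3 labelled obese, and called without mouse 2 labelled obese (1.063, limma FDR = 0.0015). Of its windows 98.0% are shared with the pseudogene Gm28438. The gene mt-Nd6, the only protein gene on the minus strand, had 1638, 1752 and 1318 in the AAV-GFP mice, 1863, 2661 and 1386 in the AAV-Cre mice labelled obese and 1978, 3049 and 1543 in those labelled nonobese. Against AAV-GFP its fold change in the mice labelled nonobese was 0.43 ± 0.21 (SE, FDR = 0.999), with mouse 3 inside the AAV-GFP range. Unlike most members it was above 0 in the mice labelled obese as well (0.29 ± 0.21 (SE, FDR = 0.687)), and its change between the subsets, 0.15 ± 0.21 (SE, FDR = 0.838), was below that of every member. Between the subsets mt-Nd5 and mt-Atp8 gave 0.27 ± 0.18 and 0.19 ± 0.17 (SE). Without mice 1 and 3 labelled obese mt-Nd5, mt-Nd6 and mt-Atp8 were at -0.19, -0.34 and -0.0973 between the subsets. Whether the counting used strand is not given, so reads of mt-Nd6 cannot be told from antisense reads opposite to it.

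The 20 transfer RNAs differed more between mice than the members did. Mature transfer RNAs are short, folded and modified, so their rows may hold reads from precursors as well as from the mature forms. The glutamine transfer RNA mt-Tq, at 3772 to 3842 on the minus strand between mt-Nd1 and mt-Nd2, had a signal of 95.2, 84.1 and 84.7 in the AAV-GFP mice, 87.3, 63.5 and 45.1 in the AAV-Cre mice labelled obese and 138, 204 and 126 in those labelled nonobese. All 3 mice labelled nonobese lay above every other mouse, and the AAV-GFP mice lay close together. It was the only mitochondrial row called in any comparison, higher in the mice labelled nonobese than in those labelled obese by 1.26 ± 0.25 (SE, FDR = 0.0161), where 0.215% of all rows were called higher. Against AAV-GFP its change was 0.79 ± 0.25 (SE, FDR = 0.999) in the mice labelled nonobese and -0.47 ± 0.25 (SE, FDR = 0.552) in those labelled obese. The call between the subsets was lost without mouse 3 labelled obese (1.02, FDR = 0.136) or without mouse 2 labelled nonobese (1.05, FDR = 0.135), and the fold change against mouse 2 labelled obese alone was 1.25.

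The transfer RNAs of the minus strand set the subsets further apart than those of the plus strand, in a split chosen after the values were seen. Between the mice labelled nonobese and labelled obese, the 8 minus-strand transfer RNAs had a median log2 fold change of 0.80, with 7 of 8 above 0 and 6 of 8 not overlapping. For the 12 plus-strand transfer RNAs the median was 0.47, with 11 of 12 above 0 and 1 of 12 not overlapping. Rows whose groups did not overlap made up 13.3% of all rows in either direction, and 6.61% were higher. Among the minus-strand rows mt-Ta, the alanine transfer RNA, gave 1.05 ± 0.43 (SE, FDR = 0.331), and mt-Tn, the asparagine transfer RNA, gave 0.81 ± 0.34 (SE, FDR = 0.349), neither of them called. Against AAV-GFP in the mice labelled obese, the minus-strand median was -0.45 and the plus-strand median 0.30. Without mice 1 and 3 labelled obese the minus-strand and plus-strand medians were 0.84 and 0.24 between the subsets, and -0.41 and 0.66 against AAV-GFP. In the mice labelled nonobese against AAV-GFP the order was the other way from that between the subsets. There the minus-strand median was 0.50 and the plus-strand median 0.75, with 2 of 8 and 5 of 12 not overlapping. Of all rows 9.72% did not overlap in that comparison, and 4.57% were higher. The difference between the strands was not tested.

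The glycine transfer RNA mt-Tg, between mt-Co3 and mt-Nd3, was by far the most abundant of the transfer RNA rows and varied 11.1-fold between mice. Its signal was 907, 397 and 112 in the AAV-GFP mice, 1248, 932 and 415 in the AAV-Cre mice labelled obese and 702.6, 923 and 958 in those labelled nonobese. The valine transfer RNA mt-Tv, between the ribosomal RNAs, had 175, 90.4 and 28.2 in the AAV-GFP mice, 246, 200.4 and 95.7 in the AAV-Cre mice labelled obese and 142, 179.9 and 199 in those labelled nonobese. Both were lowest in AAV-GFP mouse 3 and highest in mouse 1 labelled obese, and the ratio of mt-Tg to mt-Tv stayed between 3.99 and 5.18. Over the 9 mice their log2 signals had r = 0.998 (Spearman's rho = 0.983), and r = 0.99 without the 2 mice farthest from the median of mt-Tv, as a description of rows from the same libraries. Neither followed the summed messenger members (r = 0.243 for mt-Tg and 0.226 for mt-Tv, n = 9). In the 6 AAV-Cre mice together against AAV-GFP the fold changes were 1.25 ± 0.37 (SE, FDR = 0.991) for mt-Tg and 1.14 ± 0.35 (SE, FDR = 0.991) for mt-Tv, which did not pass the threshold and overlapped through AAV-GFP mouse 1. Both depended on single control mice. Without AAV-GFP mouse 3 the fold changes were 0.45 for mt-Tg and 0.43 for mt-Tv, and without AAV-GFP mouse 1 they were 1.95 and 1.73, where mt-Tg was called (limma FDR = 0.0493) and mt-Tv was not (FDR = 0.113).

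**Figure D4:**
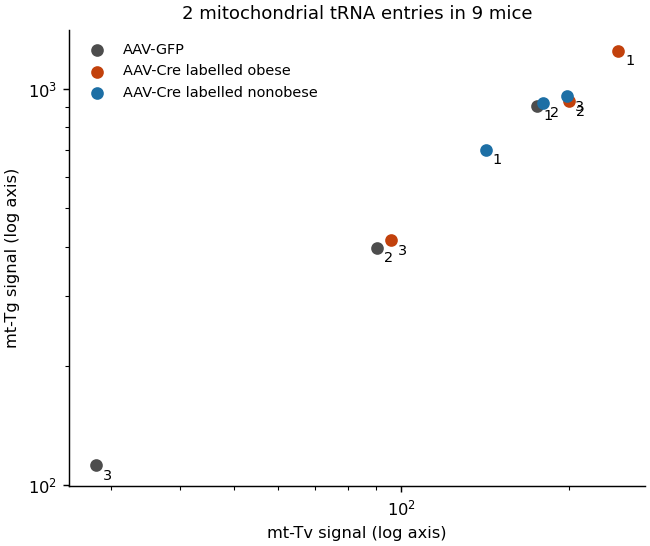
Signal of the transfer RNA rows mt-Tv and mt-Tg on log axes, with a point per mouse labelled by replicate number and coloured by group. The points lie along a line from AAV-GFP mouse 3 (28.2 and 112) to mouse 1 labelled obese (246 and 1248), and mice of all 3 groups are mixed in its upper part.

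**Figure D5:**
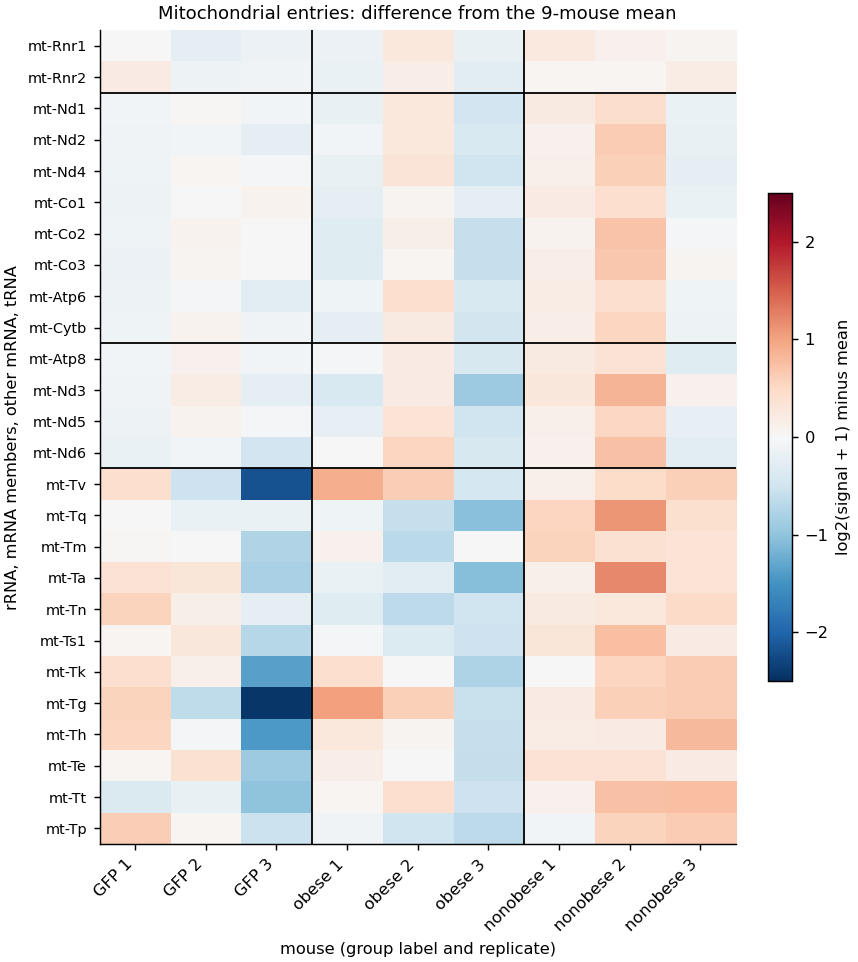
Difference of each mouse from the mean of the 9 mice, in log2(signal + 1), for the 10 members, the 4 further messenger RNAs and the 12 transfer RNAs with a mean signal of at least 20; red is above the mean and blue below it. The messenger RNAs are uniformly low in mouse 3 labelled obese and high in mouse 2 labelled nonobese, while mt-Tv and mt-Tg are lowest in AAV-GFP mouse 3.

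Nuclear genes of the same system were read from the same fit. Of 50 symbols listed for transcription, processing, decay and replication of mitochondrial DNA, 41 had a row and none was called in any comparison. Their median log2 fold change was -0.19 in the mice labelled obese and -0.08 in the mice labelled nonobese against AAV-GFP, and 0.05 between the subsets, beside -0.04, -0.02 and 0.02 over all rows. Leaving out mice 1 and 3 labelled obese gave 0.02 and -0.10 for the first and the last. Lrpprc, which stabilises mitochondrial messenger RNAs, had the highest level of the list and ranged from 99.4 to 153 in the AAV-GFP mice, 79.2 to 133 in the mice labelled obese and 105 to 127 in the mice labelled nonobese. None of the 9 regulators of mitochondrial biogenesis was called. Among them the coactivator Ppargc1a was at 16.95 to 53.6, 28.4 to 35.8 and 17.02 to 39.5 in the same order of groups. None of the 76 mitochondrial ribosomal protein genes was called, with a median of 0.15 between the subsets.

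Nuclear genes for core subunits of the same complexes gave a single call. All 27 had a row, and 26 of 27 had a fold change above 0 in the mice labelled nonobese against those labelled obese, with a median of 0.39 beside 0.02 over all rows, while 5 of 27 were above 0 in the mice labelled obese against AAV-GFP (median -0.26). With mice 1 and 3 labelled obese left out these were 20 of 27 (median 0.14) and 13 of 27 (median -0.0587). Cox8a, an oxidase subunit, had a signal of 160.1, 122 and 140.4 in the AAV-GFP mice, 94.5, 97.8 and 98.0 in the mice labelled obese and 141, 188 and 193 in those labelled nonobese. The 3 mice labelled obese lay below all other mice, mouse 2 among them, and the oligodendrocyte and endothelial marker sums given above set the same 3 mice apart. The part of cell makeup in this difference was not tested. Cox8a was called higher in the mice labelled nonobese than in those labelled obese (log2 fold change 0.83 ± 0.20 (SE, limma FDR = 0.064)). The call was lost without mouse 1 or mouse 3 labelled obese (FDR = 0.234 and 0.182), without mouse 2 or mouse 3 labelled nonobese (0.224 and 0.255), without a variance trend (0.302) and in a fit of the 2 subsets alone (0.167). Against mouse 2 labelled obese alone the fold change was 0.81, with no spread among mice of that subset to set it against. The most abundant of the list, the ATP synthase subunit Atp5b, was at 553 to 619, 451 to 647 and 538 to 627 in the AAV-GFP mice, the mice labelled obese and those labelled nonobese. Of 5 RNAs kept in the nucleus, none was called, and Malat1 ranged from 9020.1 to 10470.6, 11131 to 13274 and 9587 to 11127 in the same groups.

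Outside the mitochondrial genome, the rows whose pattern over the 9 mice was most like that of the summed messenger members were Nefl (r = 0.962), Adam12 (0.948), Pigp (0.948), Pnmal2 (0.943), Sox1ot (0.935), Map2 (0.933), Cplx2 (0.931), Purb (0.93), Rab11fip3 (0.926) and Epb41l3 (0.924). They were picked as the highest Pearson correlations of log2 values among 11864 rows with a mean signal of at least 5, so the values are a description. For the summed ribosomal members the 5 most alike were Ankrd17 (0.936), Zrsr2 (0.934), Itgb3bp (0.923), Nap1l2 (0.919) and Oaz2 (0.902).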

How the data were processed

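Laser-captured mediobasal hypothalamus of 9 mice was sequenced with a SMARTer Stranded Pico Input kit. According to the submitters' processing notes, the authors used CASAVA 1.7, TopHat2 2.0.11, HTSeq, edgeR and limma on GRCm38; the counting options for strand and multiple matches are not given in the sources used here. The deposited values are signal, reads per gene scaled as in CPM, with library sizes adjusted by edgeR's TMM factors. Each value was a whole multiple of a single read (100%, tolerance 0.01 reads), which gave back the reads. Shares used these reads, and 95% Wilson intervals cover counting error only. The test was limma 3.58.1 (R 4.3.3) with a variance trend on log2(signal + 1), a fit of all 3 groups, 13506 rows whose signal reached 1 in 3 or more libraries, Benjamini-Hochberg adjustment and an FDR of 0.1, checked on simulated data. The plan had assumed CPM and its test was kept. Fold changes are on that scale. DESeq2 1.42.0 and edgeR 4.0.16 on recovered reads were alternatives. Nothing says that libraries share more than a mouse's own tissue, so p-values measure the spread between single mice. Every member was named, with further mitochondrial rows in ranges; from each nuclear list the called genes were named, otherwise 1 or 2 of the highest level. Members and lists were chosen with earlier results of these data known. Shared sequence was counted as exact 50-base windows of GENCODE M21 transcripts found in another transcript; no genome was searched. Alternatives changed the pseudocount, filter, scaling, variance trend, groups in the fit, test, replicate block and mice left out. Mouse numbers are shared between groups. The deviations of same-numbered mice had correlations of -0.0199 to 0.0897, against -0.0876 to 0.0396 for mice of different numbers. The highest values were those of same-numbered mice. All were under 0.1, and these mice were not treated as pairs in the main fit.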

Additional observations from a re-analysis of the deposited data

Results flagged for a closer look

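The transfer RNA row mt-Tq was singled out because its effect differed between the AAV-Cre subsets under a test of the difference itself (log2 fold change 1.26 ± 0.25 (SE, FDR = 0.0161) by limma, with each of the 3 mice labelled nonobese above the 3 labelled obese). It was called in 21 of 24 alternative settings (in 1 of them the mice labelled obese were a single mouse), with fold changes from 1.02 to 1.49 and FDR values from 0.00195 to 0.241. The settings that lost it were the fit without a variance trend (0.241) and those without mouse 3 labelled obese or mouse 2 labelled nonobese. The row overlaps mt-Ti on the opposite strand by 3 bases, and the use of strand in the counting is not given. Among the 6 AAV-Cre mice, none of 41 values (shares, ratios and the signal of each mitochondrial row) had a mouse far enough from the others to be singled out, where chance alone would give about 2.05. The rule, Dixon's ratio, looks for a single far mouse, so mice that stand apart together can hide each other. Many of the values also vary together, so no conclusion is drawn from this count.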

How the results depend on the processing

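No member was called between either subset or all AAV-Cre mice and AAV-GFP under any setting tried. Between the subsets, where none was called with all mice, the count was 1 with a pseudocount of 5, 1 with quantile normalisation, 1 when scaled to rows outside the mitochondrial genome and 1 with DESeq2, and from 0 to 6 when a mouse was left out, 6 being without mouse 2 labelled obese. With the replicate number as a block it was 2. The block moved the rows called from 75 to 200 for the mice labelled obese against AAV-GFP and from 128 to 271 between the subsets. It also brought calls of mt-Nd3 between the subsets (0.78, limma FDR = 0.00603) and of mt-Tg for both subsets together against AAV-GFP (1.25, limma FDR = 0.0226). Deviations of same-numbered mice correlated at -0.0199 to 0.0897, against -0.0876 to 0.0396 for mice of different numbers. These values do not settle whether same-numbered mice were matched. Leaving out mice 1 and 3 labelled obese, a choice made after seeing the data, moved the log2 difference in the members' share from -0.0579 to 0.15 for the mice labelled obese against AAV-GFP and from 0.17 to -0.0395 between the subsets. The ratio of ribosomal to messenger reads moved by less than the spread between mice under every setting tried.

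Fold changes changed sign as follows, among them some not near 0 with all mice, such as mt-Cytb between the subsets (0.34). Without mice 1 and 3 labelled obese they were mt-Rnr2 0.17, mt-Nd1 0.31, mt-Nd4 0.35, mt-Co1 0.0751, mt-Co2 0.14, mt-Co3 0.0781 and mt-Cytb 0.27 for the mice labelled obese against AAV-GFP, mt-Co2 0.19 for both subsets together against AAV-GFP, and mt-Rnr1 -0.12, mt-Rnr2 -0.0750, mt-Nd1 -0.10, mt-Nd2 -0.0750, mt-Nd4 -0.16, mt-Atp6 -0.25 and mt-Cytb -0.0441 between the subsets. Centring on library medians gave mt-Nd2 -0.00869 for the mice labelled obese against AAV-GFP and mt-Rnr2 -0.0336 and mt-Co1 -0.0192 for both subsets together against AAV-GFP. Quantile normalisation gave mt-Nd2 -0.0294, then mt-Nd1 -0.17 and mt-Nd4 -0.0197, then mt-Nd1 -0.27, mt-Nd4 -0.15, mt-Co1 -0.0349, mt-Co3 -0.0848 and mt-Cytb -0.0983 for the mice labelled obese, labelled nonobese and all AAV-Cre mice; it could give no value for the ribosomal RNAs, which it makes equal in all mice. Scaling to rows outside the mitochondrial genome gave mt-Rnr2 -0.0335 and mt-Co1 -0.0192 for both subsets together against AAV-GFP, where edgeR gave mt-Co2 0.0320 by both its tests and DESeq2 0.0426. Leaving out single mice gave sign changes for the mice labelled obese against AAV-GFP (mt-Atp6 -0.10 to 0.31, mt-Cytb -0.31 to 0.0401, mt-Nd1 -0.30 to 0.0737, mt-Nd2 -0.11 to 0.22, mt-Nd4 -0.31 to 0.0970, mt-Rnr1 -0.0422 to 0.18, mt-Rnr2 -0.22 to 0.0124), for the mice labelled nonobese against AAV-GFP (mt-Nd4 -0.0254 to 0.40), for both subsets together against AAV-GFP (mt-Co1 -0.0492 to 0.0946, mt-Co2 -0.12 to 0.0809, mt-Co3 -0.0496 to 0.12, mt-Cytb -0.0415 to 0.13, mt-Nd1 -0.0484 to 0.14, mt-Nd4 -0.0560 to 0.16, mt-Rnr2 -0.0640 to 0.11). The cause was not tested.

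Rows called in all depended on the setting, from 5 to 275 against 75 for the mice labelled obese against AAV-GFP and from 15 to 398 against 128 between the subsets, and from 9 to 720 and 2 to 908 when a mouse was left out. The counts were 1 to 6 against 2 for the mice labelled nonobese and 2 to 14 against 6 for all AAV-Cre mice, with up to 71 without mouse 2 labelled obese. There were 3 mice a group. Each member had at least 3995 reads in every library, while mt-Ti, mt-Tr, mt-Ts2, mt-Tw and mt-Ty had a mean signal under 6.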
